A study of Homo sapiens with 12 samples.

Results

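OCI-LY1 is an established human cell line from a diffuse large B-cell lymphoma, and its RNA was compared here between cells given wild-type BCL7A and cells given delta27-BCL7A, the splice site mutant form. The comparison holds 4 of the 12 libraries of the series, chosen by cell line and construct as the labels give them, with 2 libraries per construct. Per the labels, both groups carried the vector SAR2(LTR)-BCL7A-IRES-ZsGreen1, in which BCL7A is followed by a green fluorescent reporter, and were infected in 3 cycles at a multiplicity of 2 with the short and the long isoform. Reporter-positive cells were sorted and their RNA was taken on day 10. The empty vector group of OCI-LY1, with 2 libraries, was sorted for the reporter and harvested on the same day. VAL, a second diffuse large B-cell lymphoma line, had the same 3 constructs on day 17, so that line and day cannot be told apart. The 2 libraries of a group came from independent transductions of 1 line, and the cells still had their own BCL7A gene. RNA was measured in bulk, so that fewer cells expressing a gene and less RNA per cell cannot be told apart.

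BCL7A is a small accessory subunit of the SWI/SNF (BAF) chromatin remodelling complexes, which use ATP to slide or evict nucleosomes and so open regulatory DNA. Genes of several subunits of these complexes, BCL7A among them, are mutated in B-cell lymphomas. The germinal centre, from which many such lymphomas are thought to arise, is where activated B cells mutate their antibody genes and are selected.

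The 4 libraries held between 22540785 and 23520938 counts in genes. All 20 genes of a B cell identity list reached at least 1 CPM (a read count scaled to library size) in a library of the comparison. All 14 myeloid markers stayed under 1 CPM, as did 14 of 18 T cell, 8 of 10 natural killer cell and 13 of 15 erythroid and stromal markers. At 0 counts in all 4 libraries were 5 myeloid, 6 T cell, 5 natural killer cell and 8 erythroid and stromal markers. The groups differed in technical shares. Reads set aside for low alignment quality made up 6.41% and 6.60% of the records (gene counts and records given to no gene together) with wild type but 3.92% and 3.01% with delta27. Reads aligned to more than 1 place made up 9.25% and 9.34% against 7.67% and 7.60%.

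BCL7A itself (ENSG00000110987.8; GRCh38 chr12:122019422-122062044) stood at 576 and 578 CPM in the wild-type libraries and at 573 and 588 CPM in the delta27 libraries, against 155 and 157 CPM with empty vector. The levels of the 2 constructs overlapped, and both lay above the empty vector. The log2 fold change of wild type over delta27 was -0.01 (SE 0.05; edgeR quasi-likelihood adjusted p = 0.964). Vector and endogenous transcripts were counted together, and the mutation itself cannot be seen in gene counts.

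Of 17057 genes tested, 521 were called different between wild type and delta27 at an adjusted p of 0.05 (3.05%). With wild type 286 were higher (1.68%) and 235 lower (1.38%). Of the higher genes 136 had a log2 fold change of at least 0.5 and 53 of at least 1. Of the lower genes 29 and 6 had changes of those sizes. These are 0.797% and 0.311% of all genes tested for the higher and 0.170% and 0.0352% for the lower. Processed pseudogenes, described below, made up 65 of the 136 and 33 of the 53. Among protein-coding genes 50 higher and 25 lower genes reached 0.5, and 13 and 4 reached 1. The median level was 12.99 CPM for the higher genes and 50.02 CPM for the lower. The part of level in the size of change was not tested. Among all genes, the libraries of the groups did not overlap for 48.5%, with wild type above in 24.9% and below in 23.6%. Genes named below by size of change or by p had to have groups without overlap. For them non-overlap was a condition of naming and is no separate result. Leaving out 1 library changed the count of calls to 113 without wild-type replicate 1, 137 without wild-type replicate 2 and 75 without delta27 replicate 2, whereas it was 517 without delta27 replicate 1. All 521 genes kept the direction of their difference in each of these 4 fits. Each fit reused all but 1 of the compared libraries, so the kept direction is no independent result. Of 81 genes named by a fixed rule besides BCL7A, 22 were called in every one of the alternatives that gave them a value, 15 higher and 7 lower with wild type.

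The 7 lower genes of that kind include regulators of signalling, the cytoskeleton and lipid breakdown. DIRAS1, a RAS-related small GTPase, was measured at 6.54 and 6.95 CPM with wild type, at 14.95 and 14.1 CPM with delta27 and at 18.7 and 20.01 CPM with empty vector. Both wild-type libraries lay below every other OCI-LY1 library, and the log2 fold change against delta27 was -1.11 (SE 0.12; edgeR adjusted p = 5.61e-07). PHYH, the peroxisomal enzyme that starts the breakdown of phytanic acid, stood at 3.72 and 3.69 CPM with wild type, at 7.84 and 7.83 CPM with delta27 and at 6.83 and 8.46 CPM with empty vector (-1.08, SE 0.13; adjusted p = 3.2e-06). The wild-type libraries of PHYH were again the lowest, and the delta27 libraries lay between the empty vector libraries.

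The cytoskeletal genes were PFN2, a profilin that binds actin, RDX, which ties actin to the plasma membrane, and the filament-forming SEPTIN11. PFN2 stood at 20.4 and 21.2 CPM with wild type and at 31.1 and 29.96 CPM with delta27 (-0.55, SE 0.07; adjusted p = 1.27e-05). RDX stood at 50.6 and 53.2 CPM against 69.7 and 76.04 CPM (-0.49, SE 0.07; adjusted p = 4.04e-05). No wild-type library reached a delta27 library in either gene. SEPTIN11 stood at 5.302 and 4.91 CPM against 7.96 and 9.18 CPM (-0.75, SE 0.12; adjusted p = 0.000174). GNG7, a G protein gamma subunit, stood at 21.9 and 20.8 CPM against 29.3 and 29.9 CPM (-0.47, SE 0.08; adjusted p = 0.000253). CAB39L, a partner of the kinase LKB1, stood at 75.7 and 79.7 CPM against 103 and 107 CPM (-0.43, SE 0.06; adjusted p = 5.68e-06). These 3 genes likewise had no overlap between the groups, as the naming rule required.

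Other lower genes lost their call when 1 library was left out. PTPRF, a receptor tyrosine phosphatase, stood at 3.04 and 3.39 CPM with wild type and at 5.93 and 5.71 CPM with delta27 (-0.86, SE 0.16; adjusted p = 0.00109), and it lost its call without wild-type replicate 1 (adjusted p = 0.054). CYCS, the cytochrome c of the respiratory chain and of apoptosis, stood at 413 and 439 CPM against 504 and 537 CPM, above 343 and 343 CPM with empty vector (-0.29, SE 0.05; adjusted p = 0.000339). CYCS also missed the threshold without wild-type replicate 1. Over all alternatives the log2 fold change ranged from -0.94 to -0.78 for PTPRF and from -0.34 to -0.24 for CYCS. In CYCS both constructs lay above the empty vector, and delta27 the further.

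The 15 higher genes called throughout included a pore-forming protein, a coagulation factor subunit and genes of B cell precursors and signalling. MPEG1, a pore-forming protein of phagocytes and B cells, stood at 5.003 and 5.78 CPM against 2.75 and 2.96 CPM (0.91, SE 0.16; edgeR adjusted p = 0.000537), with no overlap between the groups.

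F13A1, the A subunit of coagulation factor XIII, had the smallest p of all genes tested. It stood at 88.001 and 87.1 CPM with wild type, at 54.8 and 55.7 CPM with delta27 and at 68.2 and 64.4 CPM with empty vector (0.66, SE 0.06; adjusted p = 1.13e-08). FCGBP, a secreted protein of mucus, stood at 37.97 and 36.7 CPM, at 22.4 and 22.2 CPM and at 33.7 and 33.3 CPM in the same order (0.74, SE 0.08; adjusted p = 2.32e-07). In both genes wild type was highest, delta27 lowest and the empty vector between.

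VPREB1, part of the surrogate light chain of B cell precursors, stood at 16.4 and 16.99 CPM with wild type against 9.53 and 9.69 CPM with delta27 (0.80, SE 0.10; adjusted p = 5.68e-06). Its empty vector libraries, at 8.13 and 9.96 CPM, lay around the delta27 level. PKIG, an inhibitor of protein kinase A, stood at 13.2 and 14.4 CPM against 8.77 and 7.998 CPM (0.72, SE 0.10; adjusted p = 3.38e-05), with 13.999 and 11.7 CPM in empty vector cells, near the wild-type level. DOCK8, an exchange factor for CDC42 in lymphocytes, stood at 115 and 120 CPM against 84.5 and 90.98 CPM (0.42, SE 0.06; adjusted p = 1.09e-05). Smaller differences were those of ASB2, a substrate adaptor of a ubiquitin ligase, at 108 and 111 CPM against 85.3 and 82.2 CPM (0.39, SE 0.05; adjusted p = 2.82e-05). P4HA2, a subunit of collagen prolyl hydroxylase, stood at 105 and 109 CPM against 81.6 and 85.8 CPM (0.35, SE 0.06; adjusted p = 0.00016). The groups did not overlap in any of these 5 genes, a condition of the rule for genes named by size or p.

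**Figure D1:**
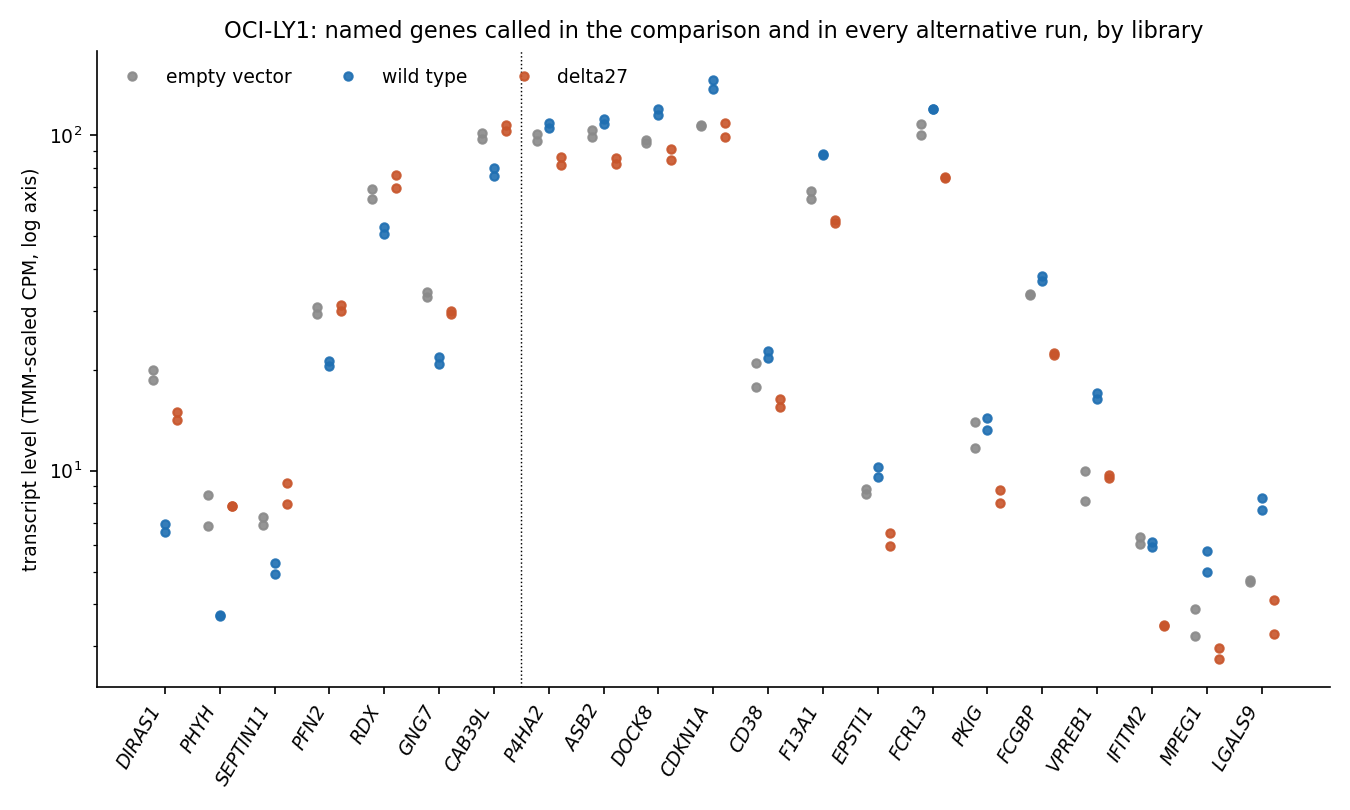
Transcript level (TMM-scaled CPM, log axis) of 21 named genes that kept their call in every alternative run, in the OCI-LY1 libraries. Each point is 1 library, grey for empty vector, blue for wild type and orange for delta27. The 7 genes left of the dotted line were lower with wild type and the 14 right of it higher. The blue and orange points of a gene do not overlap, which the naming rule required of genes picked by size or p.

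Interferon response genes were higher with wild type in 6 of 38 members tested and lower in 0, with a median log2 fold change of 0.15 against 0 for all genes. Of all genes tested 1.68% were higher and 1.38% lower, shares that apply to every list here. LGALS9, the glycan-binding galectin-9, stood at 7.65 and 8.297 CPM with wild type, at 3.26 and 4.105 CPM with delta27 and at 4.74 and 4.65 CPM with empty vector (1.11, SE 0.14; adjusted p = 3.31e-06). EPSTI1, an interferon-induced gene, stood at 10.3 and 9.601 CPM, at 5.97 and 6.52 CPM and at 8.84 and 8.54 CPM (0.67, SE 0.12; adjusted p = 0.00109). Both kept their call in every alternative, and in both the empty vector lay between the constructs.

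IFI44, an interferon-induced protein, stood at 3.42 and 2.56 CPM with wild type and at 1.36 and 1.57 CPM with delta27 (1.03, SE 0.23; adjusted p = 0.00671). It lost its call without wild-type replicate 1 (adjusted p = 0.209), delta27 replicate 1 (0.0682) or delta27 replicate 2 (0.0899). TRIM22, an antiviral ubiquitin ligase, stood at 147 and 151 CPM against 130 and 128 CPM (0.21, SE 0.05; adjusted p = 0.0169). It lost its call without wild-type replicate 1 (adjusted p = 0.096) or 2 (0.217) and without delta27 replicate 1 (0.0616) or 2 (0.255). The list held 3 called members without wild-type replicate 1, 3 without wild-type replicate 2, 3 without delta27 replicate 1 and 2 without delta27 replicate 2, all higher. The other 2 called members were IRF7 and RSAD2. IFITM2, an interferon-induced membrane protein named by its size of change, stood at 6.11 and 5.91 CPM against 3.43 and 3.47 CPM (0.80, SE 0.15; adjusted p = 0.00107). Its empty vector libraries, at 6.33 and 6.03 CPM, lay at the wild-type level, and it kept its call throughout.

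Interferon acts on many of its targets through a promoter element of repeated GAAA letters, bound by the IRF and ISGF3 factors. Promoter sequence from RefSeq (GRCh38.p14) matched 30 of the 38 genes, and the letters GAAA, any 2 bases and GAAA again (TTTC, any 2 bases and TTTC for the other strand) were sought in the 250 bases before the start. Of these 30 promoters 15 held a match (50%), against 3.07% of all 27305 promoters. Of the 6 genes higher with wild type 4 had a promoter in the table, and those of EPSTI1 and IFI44 held 1 match each. Both are printed to show the element in genes that differed here, on the strand of the gene, 5′ to 3′, with the match in capitals. The EPSTI1 stretch lies at chr13:42992272-42992326 on the minus strand and the IFI44 stretch at chr1:78649736-78649788 on the plus strand.

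EPSTI1: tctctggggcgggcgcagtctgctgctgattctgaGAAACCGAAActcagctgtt
IFI44: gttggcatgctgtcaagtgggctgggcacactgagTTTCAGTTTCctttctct

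The p53 targets were higher in 4 of 29 members and lower in 0, with a median of 0.06, beside 1.68% higher and 1.38% lower among all genes. CDKN1A, the p21 inhibitor of cyclin-dependent kinases, stood at 138 and 146 CPM with wild type, at 109 and 98.7 CPM with delta27 and at 107 and 106 CPM with empty vector (0.45, SE 0.06; adjusted p = 3.58e-06). Only the wild-type libraries stood apart from the rest, and the call held in every alternative. The death receptor FAS stood at 7.74 and 7.95 CPM against 6.23 and 5.33 CPM (0.44, SE 0.12; adjusted p = 0.0277). The pro-apoptotic BBC3 (PUMA) stood at 14.5 and 16.2 CPM against 12.8 and 10.4 CPM (0.40, SE 0.10; adjusted p = 0.0177). The stress-induced SESN1 stood at 14.1 and 16.03 CPM against 12.96 and 10.2 CPM (0.38, SE 0.11; adjusted p = 0.0439). These 3 calls were fragile. Without delta27 replicate 2 the adjusted p was 0.453 for FAS, 0.484 for BBC3 and 0.643 for SESN1. Without wild-type replicate 2 it was 0.192, 0.258 and 0.382 in that order, and without wild-type replicate 1 FAS (0.148) and SESN1 (0.08) missed the threshold. With all libraries kept, limma-voom gave an adjusted p of 0.0621 for FAS and 0.0656 for SESN1, and DESeq2 gave 0.0595 for FAS, 0.0862 for BBC3 and 0.145 for SESN1. The list held 1 called member without delta27 replicate 2, 1 without wild-type replicate 2 and 2 without wild-type replicate 1.

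CDKN2A, which encodes the p16 and ARF tumour suppressors and was picked after its values were seen, stood at 183 and 173 CPM with wild type, at 141 and 123 CPM with delta27 and at 173 and 184 CPM with empty vector (0.43, SE 0.06; adjusted p = 0.000257). Here the delta27 libraries were the low ones. In the BCL2 family, which governs the mitochondrial step of apoptosis, 1 of 17 members was higher (BBC3) and 1 lower. BCL2, the survival factor, stood at 838 and 840 CPM with wild type against 950 and 988 CPM with delta27, with 897 and 886 CPM in empty vector cells between them (-0.21, SE 0.05; adjusted p = 0.00738). It lost its call without wild-type replicate 1 (adjusted p = 0.13) or 2 (0.103) or delta27 replicate 2 (0.233).

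Of 30 genes of adhesion and migration, 4 were higher and 1 lower with wild type, at a median of -0.00. The chemokine receptor CCR7, which guides lymphocytes into lymph nodes, stood at 0.855 and 1.09 CPM with wild type against 0.296 and 0.169 CPM with delta27 (2.03, SE 0.41; adjusted p = 0.00319). The integrin beta-2 chain ITGB2 stood at 3.16 and 3.65 CPM against 2.08 and 1.61 CPM (0.88, SE 0.19; adjusted p = 0.00533). RGS16, a regulator of G protein signalling, stood at 9.83 and 11.9 CPM against 7.29 and 8.04 CPM (0.50, SE 0.11; adjusted p = 0.00772). The groups did not overlap in any of the 3, as in 48.5% of all genes tested. Without delta27 replicate 2 the adjusted p was 0.155 for CCR7, 0.233 for ITGB2 and 0.0625 for RGS16, and without wild-type replicate 2 it was 0.068, 0.116 and 0.24. RGS16 also lost its call without delta27 replicate 1 (0.0819). The list held 1 called member in each of the fits without wild-type replicate 2 and without delta27 replicate 2. The lower gene was GNA13, a G protein alpha subunit that confines B cells to the germinal centre, at 192 and 189 CPM against 211 and 226 CPM (-0.20, SE 0.05; adjusted p = 0.0201). GNA13 lost its call without wild-type replicate 1 (adjusted p = 0.144) or 2 (0.192) or delta27 replicate 2 (0.431), or with the first form of the GC correction (0.066).

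In the B cell receptor pathway 3 of 29 members were higher and 0 lower, with a median of 0.02. PTPN6 (SHP-1), a phosphatase that restrains the receptor, stood at 9.32 and 9.17 CPM with wild type against 7.29 and 5.54 CPM with delta27 (0.53, SE 0.12; adjusted p = 0.00914). The inositol phosphatase INPP5D stood at 146 and 144 CPM against 129 and 124 CPM (0.20, SE 0.06; adjusted p = 0.0469). Both phosphatases were higher with wild type without overlap between the groups, which was also absent in 48.5% of all genes tested. Neither was called without wild-type replicate 1 (adjusted p = 0.0959 and 0.304), wild-type replicate 2 (0.0704 and 0.194) or delta27 replicate 2 (0.414 and 0.455). INPP5D was also not called without delta27 replicate 1 (0.0821) and, with all libraries kept, with RLE scaling (0.0516), the first form of the GC correction (0.569), limma-voom (0.0649) or DESeq2 (0.109).

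Of 23 germinal centre genes, 2 were higher (CD38 and SSBP2) and 3 lower (GNA13, STAP1 and KLHL6), with a median of 0.03. CD38, a surface enzyme that breaks down NAD, stood at 22.8 and 21.6 CPM with wild type against 15.5 and 16.4 CPM with delta27 (0.48, SE 0.08; adjusted p = 0.000395), and it was called in every alternative. The list held 1 called member without wild-type replicate 1, 1 without wild-type replicate 2, 3 without delta27 replicate 1 and 1 without delta27 replicate 2. Among 20 B cell identity genes the 1 called was the surface antigen CD24, at 369 and 369 CPM against 407 and 434 CPM (-0.19, SE 0.05; adjusted p = 0.0152). It lost its call without wild-type replicate 1 (adjusted p = 0.169) or 2 (0.149) or delta27 replicate 2 (0.393).

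Of 27 NF-kB targets 2 were higher, CCR7 and the activation marker CD83, and 0 lower, with a median of 0.09. CD83 stood at 86.5 and 88.5 CPM against 65.4 and 59.5 CPM (0.49, SE 0.09; adjusted p = 0.00772), and it lost its call without wild-type replicate 1 (adjusted p = 0.0594) or 2 (0.0759) or delta27 replicate 2 (0.198), or with the first form of the GC correction (0.0503). Of 17 MHC class II presentation genes 1 was lower, HLA-DMB, part of the peptide loading chaperone, at 13.3 and 12.2 CPM against 17.1 and 17.4 CPM (-0.44, SE 0.09; adjusted p = 0.00279). It lost its call without wild-type replicate 2 (adjusted p = 0.0822) or delta27 replicate 2 (0.0661). The median of that list was 0.10, of the other sign.

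FCRL3, an Fc receptor-like protein of B cells, stood at 119 and 120 CPM with wild type, at 74.7 and 75.2 CPM with delta27 and at 108 and 100 CPM with empty vector (0.67, SE 0.08; adjusted p = 7.54e-05). The delta27 libraries were the low ones. Of the 4 FCRL genes tested, a family looked at after these values were seen, 3 were higher. FCRL2 stood at 25.9 and 28.1 CPM against 16.99 and 19.4 CPM (0.57, SE 0.09; adjusted p = 0.000164). FCRL5 stood at 87.2 and 85.6 CPM against 74.1 and 74.01 CPM (0.22, SE 0.06; adjusted p = 0.0432). FCRL2 and FCRL3 were called in every alternative, whereas FCRL5 lost its call without wild-type replicate 1 (adjusted p = 0.304) or 2 (0.19) and without delta27 replicate 1 (0.125) or 2 (0.332), and with DESeq2.

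Immunoglobulin and T cell receptor segments were higher in 7 of 96 tested (7.29%) and lower in 0, beside 1.68% higher and 1.38% lower among all genes. After the correction for GC content and length 6 were higher and 2 lower, and the share with a positive value went from 76.04% to 57.3%. IGHG1, the constant region of the IgG1 heavy chain, stood at 227 and 221 CPM with wild type, at 175 and 164 CPM with delta27 and at 186 and 189 CPM with empty vector (0.40, SE 0.05; adjusted p = 2.57e-06). IGLC7, a lambda light chain constant segment, stood at 6.67 and 7.82 CPM against 3.09 and 3.22 CPM (1.20, SE 0.16; adjusted p = 5.99e-06). Both were picked after their values were seen and kept their call in every alternative that gave a value. Such segments have near-identical copies, so which copy a counted read came from is uncertain. Reads recorded as aligned to more than 1 place were given to no gene. The class held 3 called members without wild-type replicate 1, 3 without wild-type replicate 2, 7 without delta27 replicate 1 and 2 without delta27 replicate 2.

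Of 29 TMED cargo receptor and COP coat genes, which carry proteins between the endoplasmic reticulum and the Golgi, 2 were lower and 0 higher, with a median of -0.08. LMAN1, a lectin that carries glycoproteins, stood at 138 and 136 CPM with wild type against 158 and 167 CPM with delta27 (-0.25, SE 0.05; adjusted p = 0.00523). TMED7 stood at 24.3 and 24.5 CPM against 31.3 and 36.1 CPM, with 16.01 and 15.6 CPM in empty vector cells (-0.47, SE 0.10; adjusted p = 0.00829). In TMED7 both constructs lay above the empty vector. LMAN1 and TMED7 lost their calls without wild-type replicate 1 (adjusted p = 0.0689 and 0.114), wild-type replicate 2 (0.0935 and 0.0938) or delta27 replicate 2 (0.205 and 0.274).

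In the Wnt pathway 1 of 29 members was higher and 1 lower. KREMEN2, a co-receptor of the inhibitor DKK1, stood at 4.15 and 3.56 CPM with wild type and at 1.95 and 0.846 CPM with delta27 (1.46, SE 0.24; adjusted p = 0.000378), and the call was lost without delta27 replicate 2 (adjusted p = 0.0708). LRP6, a co-receptor for Wnt ligands, stood at 0.898 and 1.35 CPM against 2.203 and 2.16 CPM (-0.96, SE 0.25; adjusted p = 0.0253). It lost its call without wild-type replicate 1 (adjusted p = 0.359), delta27 replicate 1 (0.0863) or delta27 replicate 2 (0.225), or with limma-voom (0.0702).

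In 12 of the 36 lists no member was called. These included the 28 SWI/SNF subunits, with a median of -0.02, the 32 genes of cholesterol and fatty acid synthesis (-0.00), the 43 nuclear genes of oxidative phosphorylation (-0.01) and the 39 DNA repair genes (-0.04). The ATPase SMARCA4 stood at 405 and 392 CPM with wild type against 407 and 407 CPM with delta27 (-0.03, SE 0.06). The BCL7A paralogs BCL7B (0.06, SE 0.06) and BCL7C (-0.02, SE 0.08) also differed by no more than about their standard errors. Other fits called some members of these lists. The fit of the 4 compared libraries alone called 1 SWI/SNF subunit lower, 2 cholesterol and fatty acid genes lower, 2 oxidative phosphorylation genes higher and 3 lower, and 1 DNA repair gene higher and 1 lower. After the correction for GC content and length, 3 oxidative phosphorylation genes were lower and 1 DNA repair gene higher.

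Among 2814 non-coding genes 16 were higher (0.569%) and 15 lower (0.533%), smaller shares than the 1.68% and 1.38% among all genes. The 3 described here were picked after their values were seen. TSPOAP1-AS1, an antisense transcript, stood at 39.9 and 38.8 CPM with wild type, at 25.2 and 26.1 CPM with delta27 and at 27.5 and 27.4 CPM with empty vector (0.62, SE 0.07; adjusted p = 5.61e-07). MIR17HG, the host transcript of the miR-17-92 microRNA cluster, stood at 23.9 and 26.1 CPM, at 32.3 and 37.4 CPM and at 15.4 and 18.2 CPM (-0.48, SE 0.08; adjusted p = 0.000512), and missed the threshold without delta27 replicate 2 (adjusted p = 0.0899). MIR34AHG, the host transcript of miR-34a, stood at 3.85 and 4.21 CPM against 2.84 and 2.24 CPM (0.66, SE 0.17; adjusted p = 0.0193). Wild type alone was raised over the empty vector in TSPOAP1-AS1, while in MIR17HG both constructs were. MIR34AHG missed the threshold without wild-type replicate 1 (adjusted p = 0.0839) or 2 (0.192) or delta27 replicate 2 (0.397). Reads of an antisense gene and its partner cannot be told apart where the strand setting of the counting is not given.

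Processed pseudogenes, copies of spliced transcripts pasted back into the genome, moved in 1 direction: 69 of 1272 were called (5.42%), all 69 higher with wild type. Among 12244 protein-coding genes 402 were called (3.28%), 184 higher (1.503%) and 218 lower (1.78%). The median log2 fold change of the processed pseudogenes was 0.45, and 79.6% had a positive value. At a median level of 0.53 CPM, against 30.6 CPM for protein-coding genes, many of these pseudogenes rested on few counts. Their summed level was 2542 and 2599 CPM with wild type, 2120 and 2025 CPM with delta27 and 2501 and 2835 CPM with empty vector, so that the delta27 libraries were the low ones. Reads of low alignment quality were likewise fewest with delta27, at 3.92% and 3.01%, against 6.41% and 6.60% with wild type and 4.80% and 6.90% with empty vector. Their part in the result was not tested. Without delta27 replicate 2, 6 processed pseudogenes were called at a median of 0.42. Without wild-type replicate 1 it was 21, at 0.45, and without wild-type replicate 2 it was 11, at 0.41.

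The source gene was found by symbol and aligned for 951 of them. The median identity to the source transcript was 97.9% for the 53 called and 94.1% for the 898 not called. By identity, 2.21% of 181 were called under 90%, 2.57% of 272 from 90% to 94%, 3.27% of 245 from 94% to 97%, 10.2% of 186 from 97% to 99% and 22.4% of 67 at 99% or more. The median log2 fold change did not follow that order, at 0.12, 0.56, 0.60, 0.50 and 0.43. Identity was taken over the whole of the shorter sequence, and some pairs matched poorly, such as PDIA3P1 at 51.9% and NKAPP1 at 52.7%. The parts of such pairs and of read level in the shares called were not tested. The 41 source genes of the called pseudogenes had a median of 0.03, with 1 higher and 0 lower.

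RPL37P2, a copy of the ribosomal protein gene RPL37, stood at 6.4996 and 7.47 CPM with wild type, at 3.47 and 3.09 CPM with delta27 and at 5.32 and 6.95 CPM with empty vector (1.09, SE 0.16; adjusted p = 7.18e-05). RPL21P16, a copy of RPL21, stood at 7.01 and 8.99 CPM, at 4.32 and 3.39 CPM and at 6.83 and 7.99 CPM (1.05, SE 0.16; adjusted p = 0.000205). In both, picked after their values were seen, the wild-type and empty vector libraries overlapped and the delta27 libraries lay lower. They are shown beside their source genes to show how few letters separate such copies. Printed are coding bases 4 to 93 of each source transcript (GRCh38, GENCODE release 29) and the matching stretch of the copy, 5′ to 3′, with differing bases in capitals. RPL37P2 was read at chr11:67682966-67683055 and RPL21P16 at chr10:120355091-120355180, both on the minus strand and annotated as processed pseudogenes. RPL37 lies at chr5:40825262-40835335 on the minus strand and RPL21 at chr13:27251309-27256691 on the plus strand.

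RPL37: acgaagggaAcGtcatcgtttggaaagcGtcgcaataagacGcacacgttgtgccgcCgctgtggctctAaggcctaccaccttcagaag
RPL37P2: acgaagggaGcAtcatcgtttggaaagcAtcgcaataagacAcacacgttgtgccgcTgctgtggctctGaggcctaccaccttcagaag
RPL21: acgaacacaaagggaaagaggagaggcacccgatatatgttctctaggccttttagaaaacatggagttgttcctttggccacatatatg
RPL21P16: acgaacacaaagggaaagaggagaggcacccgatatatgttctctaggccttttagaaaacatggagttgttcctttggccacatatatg

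RPL37P2 differed from RPL37 at 6 of the 90 positions, counted from 1 at the first base printed (A10G, G12A, G29A, G42A, C58T and A70G, source base first), and RPL21P16 differed from RPL21 at 0. Over the whole aligned length, RPL37P2 was 95.8% and RPL21P16 100% identical to its source transcript. Where copies are identical, a read matches both places equally well. Reads recorded as aligned to more than 1 place were given to no gene and left out of the tests. How the counted reads of such copies were placed was not tested.

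**Figure D2:**
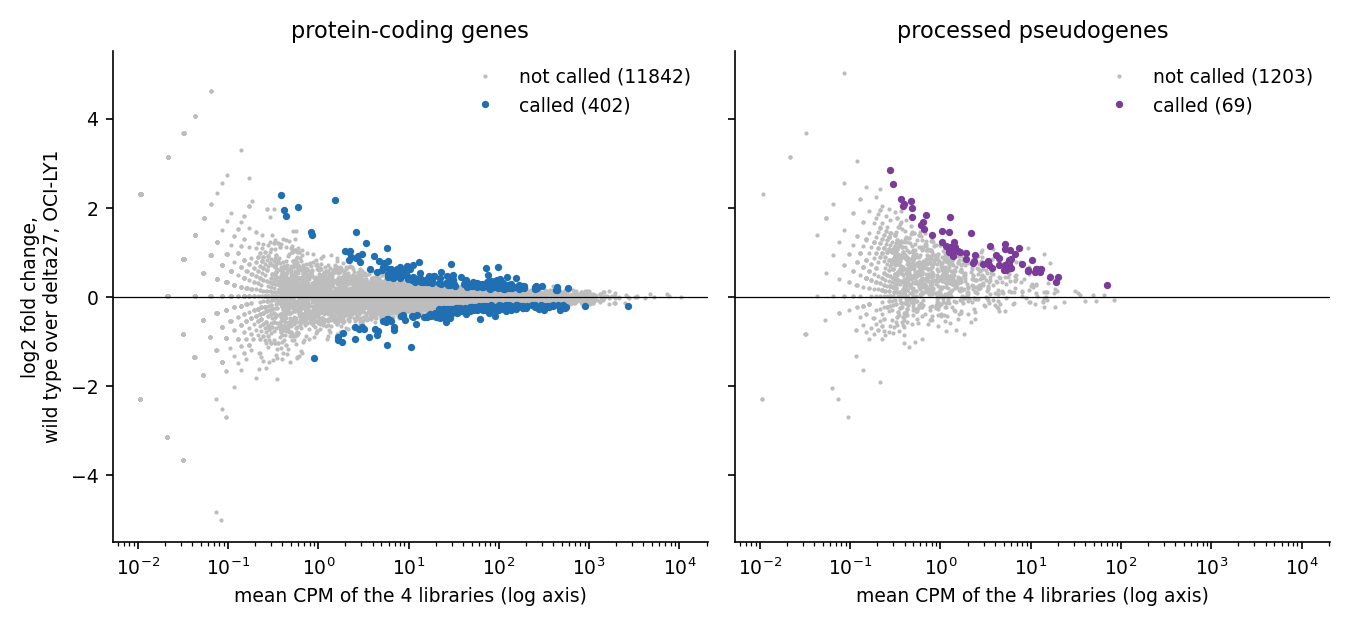
Log2 fold change of wild type over delta27 in OCI-LY1 against the mean level of the libraries (CPM, log axis), for protein-coding genes and processed pseudogenes. Each point is 1 gene, grey where not called and coloured where called. Called coding genes lie on both sides of 0 (184 above, 218 below), and all 69 called processed pseudogenes lie above it.

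The fold changes followed the GC content of the transcripts. Across 16865 genes, which are not independent replicates, Spearman's correlation of the log2 fold change with GC content was 0.265, and among 12244 protein-coding genes 0.354. The median log2 fold change went from -0.08 in the lowest of 5 equal groups of genes by GC content to 0.07 in the highest. Of the 235 lower genes 141 lay in the lowest group, where 17 were higher. Of the 286 higher genes 98 lay in the highest group, where 16 were lower. The correlation of a library's deviation from the OCI-LY1 mean with GC content was 0.04 and -0.10 for wild type, -0.16 and -0.45 for delta27 and 0.25 and 0.39 for empty vector, so libraries of 1 construct differed too. Without delta27 replicate 2 the correlation of the fold change was 0.106.

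Removing each library's smooth dependence on GC content and transcript length brought the correlation to 0.003. It called 637 genes, 361 higher and 276 lower, of which 388 were among the 521. Of the 286 higher genes 239 stayed called and of the 235 lower genes 149. A first form of the correction, with the trend over all genes and not centred, called 758 genes, 249 higher and 509 lower, so that the split between higher and lower calls depended on the form. Of the 69 processed pseudogenes 66 stayed called in the revised form. BBC3 lost its call there (adjusted p = 0.165).

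Genes with ZNF symbols, which encode zinc finger proteins and were counted after the calls were seen, were lower in 17 of 422 (4.03%) and higher in 1 (0.237%), beside 1.38% lower and 1.68% higher among all genes, with a median of -0.06 and a median GC content of 43.2% against 48.2% for all genes. After the correction 11 were lower and 0 higher, at a median of -0.03. ZNF92 stood at 84.7 and 92.3 CPM with wild type against 103 and 112 CPM with delta27 (-0.28, SE 0.06; adjusted p = 0.00351), and at -0.16 after the correction. ZNF92 was not called without wild-type replicate 1 (adjusted p = 0.171) or delta27 replicate 2 (adjusted p = 0.208), or with the first form of the correction.

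The empty vector libraries place these differences. For the 286 genes higher with wild type, the empty vector mean lay between the constructs in 194, above both in 67 and below both in 25. For the 235 lower genes it lay below both in 121, between them in 82 and above both in 32. Over all genes tested it lay between in 25.9%, above both in 41.5% and below both in 32.7%. The called genes were chosen for a gap between the constructs, and a wider gap leaves more room for a value between. The shares of called genes and of all genes are therefore not a like comparison. Against empty vector, 1951 genes were called with wild type (11.4%; 6.23% higher and 5.21% lower) and 3338 with delta27 (19.6%; 10.4% higher and 9.16% lower). These contrasts share libraries with each other and with the comparison of the constructs. The correlation of a library's deviation with GC content was 0.25 and 0.39 for empty vector. It was 0.04 and -0.10 for wild type and -0.16 and -0.45 for delta27, the further from empty vector. Neither count was corrected for GC content, and its part in them was not tested. CDKN1A had log2 fold changes over empty vector of 0.41 with wild type and -0.04 with delta27. The values were 0.40 and -0.26 for F13A1, and -1.52 and -0.41 for DIRAS1.

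The same contrast in VAL shares no library with that in OCI-LY1. There 1547 of the 17057 genes were called (9.07%), 774 higher (4.54%) and 773 lower (4.53%) with wild type. Of the 286 genes higher in OCI-LY1, 251 had a positive log2 fold change in VAL, 116 were called higher and 2 lower. Of the 235 lower genes 26 had a positive value in VAL, 100 were called lower and 3 higher. Among all genes tested 50.9% were positive in VAL. The correlation with GC content was 0.241 in VAL, and 69 processed pseudogenes were called higher and 1 lower there. The part of these measures in what the lines share was not tested.

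CDKN1A stood in VAL at 107 and 97.04 CPM with wild type against 82.6 and 77.8 CPM with delta27 (0.35; adjusted p = 0.000132). LGALS9 stood at 26.6 and 27.96 CPM against 17.6 and 15.9 CPM (0.70; adjusted p = 8.71e-07). CAB39L, lower in OCI-LY1, stood at 22.99 and 23.5 CPM against 29.7 and 31.5 CPM (-0.40; adjusted p = 0.000382). These 3 genes were called with the same direction in both lines. BCL2 was so as well, at 449 and 464 CPM against 536 and 532 CPM (-0.23; adjusted p = 0.00158).

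The difference between the lines was itself tested for every gene, and 77 were called (0.451%), 46 with a positive value of VAL minus OCI-LY1 (0.270%) and 31 with a negative one (0.182%). Of the 77, 21 were among the 521. PHYH stood in VAL at 110 and 102 CPM with wild type and at 109 and 111 CPM with delta27, with a log2 difference between the lines (VAL minus OCI-LY1) of 1.02 (SE 0.14; adjusted p = 6.41e-05). HLA-DMB was lower with wild type in OCI-LY1 and higher in VAL, at 197 and 182 CPM against 153 and 152 CPM (0.31; adjusted p = 0.000118). Without wild-type replicate 1 or 2 of OCI-LY1, 23 and 32 genes were called different between the lines, and without delta27 replicate 1 or 2, 39 and 29.

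**Figure D3:**
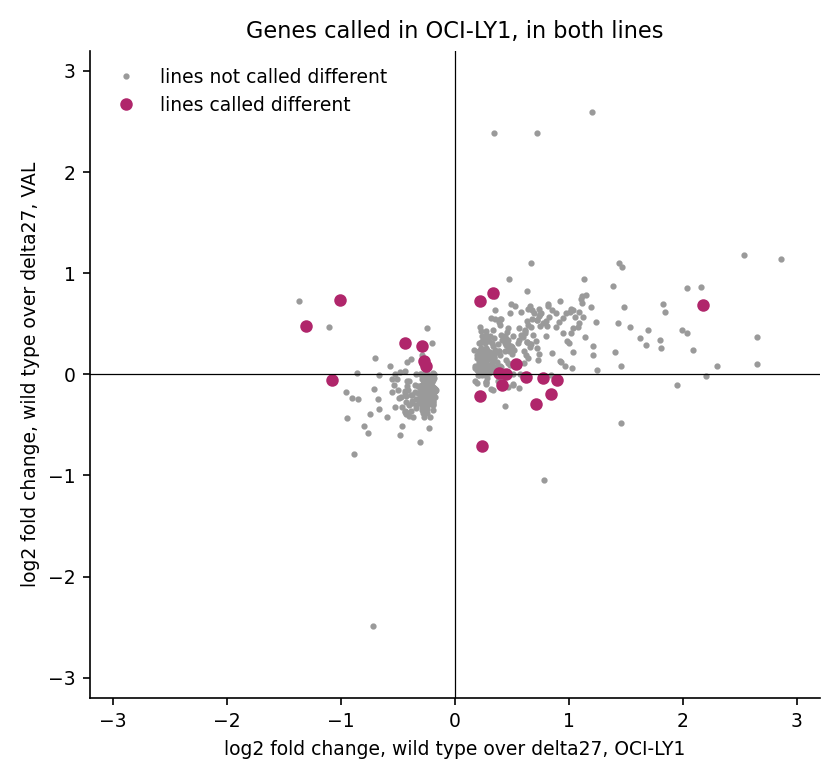
Log2 fold change of wild type over delta27 in VAL against that in OCI-LY1 for genes called in OCI-LY1. Each point is 1 gene, and 518 of the 521 lie inside the axes. Most points lie in the quadrants of like sign, and the 21 genes called different between the lines are drawn larger and in magenta.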

How the data were processed

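Polyadenylated RNA was sequenced from stranded libraries (TruSeq Stranded mRNA kit, 1 µg of RNA, per the labels' protocols). The authors deposited raw counts per gene, 1 table per library with 60603 genes. STAR 2.6.1b, HTSeq 0.11.2 and the build GRCh38 are named in the submitters' processing notes; the strand setting of the counting is not given in the sources used here. Closing records for reads given to no gene were left out of library sizes and tests, and their shares are given in the report. Of the genes, 58483 matched GENCODE release 29 and 60261 had a symbol.

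All 12 libraries were fitted together with 6 group means in edgeR 4.0.16 (R 4.3.3), with TMM scaling, filterByExpr at a count minimum of 10 and the robust quasi-likelihood test. Adjusted p-values are Benjamini-Hochberg over all 17057 genes tested, with a threshold of 0.05. Every adjusted p in the text is from this fit unless another fit or method is named. Those of other fits are adjusted over the genes that each of them tested. CPM values are TMM-scaled. The common biological coefficient of variation was 3.70%. The script was checked on simulated data drawn with no GC or length trend between libraries. That check does not cover how calls behave under such a trend.

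Named genes were BCL7A, the called coding genes with at least 1 CPM and no overlap between groups that had the 15 largest fold changes or the 10 smallest p in each direction, up to 4 called members of each list, and the 5 called coding genes with the largest difference between lines. The members and lists were chosen with earlier results of these data known. Alternatives were RLE scaling, other filters, fits of fewer libraries, a replicate block, leaving out each library, limma-voom (limma 3.58.1), DESeq2 1.42.0 and a correction for GC content and length. Leaving out pseudogenes was added after the data were seen, and the correction was revised, to the longest transcript and a centred trend over coding genes, after its first form was seen. Some results of the naming rule are not reported here.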

Additional observations from a re-analysis of the deposited data

Results flagged for a closer look

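The difference between wild type and delta27 was tested between the lines for every gene, and the named genes described here passed (edgeR interaction test, adjusted over all 17057 genes). Each value is the log2 difference in VAL minus that in OCI-LY1, where line and day of harvest cannot be told apart.

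PHYH, the phytanic acid enzyme, differed by 1.02 (adjusted p = 6.41e-05), with a lower level under wild type in OCI-LY1 (-1.08) and -0.06 in VAL. SDC3, a cell surface proteoglycan, differed by 1.74 (adjusted p = 0.00379), from -1.01 in OCI-LY1 to 0.73 in VAL. HLA-DMB differed by 0.75 (adjusted p = 4.28e-05), from -0.44 to 0.31. CTSH, a lysosomal protease, was higher in both lines and differed by 0.47 (adjusted p = 0.0154), from 0.33 to 0.80.

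The other 5 genes were higher with wild type in OCI-LY1 and had a smaller or negative value in VAL. TP73, a relative of p53, differed by -1.03 (adjusted p = 0.0128), from 0.84 in OCI-LY1 to -0.19 in VAL. BCL11A, a transcription factor of lymphoid development, differed by -0.95 (adjusted p = 0.0128), from 0.90 to -0.05. DOCK8 differed by -0.52 (adjusted p = 0.000108), from 0.42 to -0.11. CDT1, a replication licensing factor, differed by -0.44 (adjusted p = 0.0128), from 0.22 to -0.22. ASB2 differed by -0.37 (adjusted p = 0.0197), from 0.39 to 0.02.

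In OCI-LY1 itself, the call of SDC3 was lost without wild-type replicate 2 (adjusted p = 0.261) or delta27 replicate 2 (0.355), and that of CTSH without wild-type replicate 1 (0.121) or delta27 replicate 1 (0.0783). TP73 lost its call without wild-type replicate 1 (0.203) or 2 (0.053) or delta27 replicate 2 (0.293), or with limma-voom (0.0528). BCL11A lost it without wild-type replicate 1 (0.0959) or delta27 replicate 2 (0.0911). CDT1 lost it without wild-type replicate 1 (0.494) or 2 (0.0837) or delta27 replicate 1 (0.145) or 2 (0.316). With all libraries kept, CDT1 also lost it with RLE scaling (0.0507), the GC and length correction (0.263) and its first form (0.261), limma-voom (0.0599) and DESeq2 (0.142).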

How the results depend on the processing

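Of the 521 genes called between wild type and delta27, all that were tested kept their direction in each of the 15 alternatives. The alternatives reused the same libraries, so the kept direction is no independent result. The count of called genes was 1086 in the fit of the 6 OCI-LY1 libraries alone, 1086 in the fit of the 4 compared libraries alone and 330 with DESeq2. It ranged from 75 to 517 when 1 library was left out, lowest without delta27 replicate 2. The first form of the GC and length correction called 758 (32.8% higher, against 54.9% in the reported fit). The 77 genes called different between lines became 144 with no filter on low counts, 185 after the GC and length correction, 51 with limma-voom and 47 with DESeq2, and ranged from 23 to 39 when 1 OCI-LY1 library was left out. For these counts the cause was not tested. BCL7A was not called in any alternative, with log2 fold changes from -0.05 to 0.01.

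No pairing by replicate number was seen across genes: deviations of same-numbered OCI-LY1 libraries correlated at 0.0006, -0.045 and 0.027. Counting noise of scarce genes enters these values, so they cannot settle whether same-numbered libraries were handled together. With the replicate block 527 genes were called, 486 of them among the 521, and 94 differed between lines.

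Of the 81 named genes 53 lost their call without delta27 replicate 2, 47 without wild-type replicate 1, 44 without wild-type replicate 2 and 21 without delta27 replicate 1. With 2 libraries per group, differences of scarce genes rest on few counts.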
